A study of Homo sapiens with 10 samples.

Results

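The long non-coding RNAs (lncRNAs) described here are small nucleolar RNA (snoRNA) hosts and lncRNAs named in work on stress and growth. They were chosen by gene symbol, as every SNHG (small nucleolar RNA host gene) row of the count tables with a plain number plus 15 lncRNAs named singly, and gave 43 of the 59453 listed genes. By role, 32 were counted as snoRNA hosts by symbol (28 SNHG rows, GAS5, ZFAS1, DANCR and EPB41L4A-AS1), 3 were microRNA hosts (MIR22HG, MIR17HG and MIR4435-2HG), 2 were nuclear body lncRNAs (NEAT1 and MALAT1) and 6 were other lncRNAs (NORAD, TUG1, OIP5-AS1, PVT1, CYTOR and LINC00649). TUG1 is typed as protein coding in GENCODE and is kept here among the lncRNAs. Of the 43, 38 had enough counts to be tested, among them 27 snoRNA hosts, and the 5 that did not were SNHG14, SNHG22, SNHG27, SNHG28 and SNHG31. Of the 32 hosts, 4 (SNHG10, SNHG20, SNHG21 and SNHG22) held no gene typed as a snoRNA in GENCODE or RefSeq. Genes typed as small Cajal body RNAs were not counted, so these 4 may hold guide RNAs of that type.

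All libraries were RNA-seq of HAP1, a human cell line with a single copy of nearly every chromosome that was obtained from KBM-7 leukaemia cells. Untreated libraries came from wild type cells (WT, clones 2 and 11), cells lacking the DNA glycosylase MUTYH (MUTYH-/-, clones 7 and 8), cells lacking the DNA glycosylase OGG1 (OGG1-/-, clones 1 and 22) and cells lacking both (DKO, clones 4 and 14). The same WT clones were also collected 24 hours after 100 µM H2O2. Each library was thus 1 clone, both DKO clones were made from 1 OGG1-/- clone, and every comparison used the same untreated WT libraries.

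Total counts lay between 22225091 and 22674964 per library, and the 43 lncRNAs together took 0.273% to 0.331% of them. OGG1 transcript was at 12.2 and 13.1 CPM (library-size scaled counts) in WT, 1.22 and 11.3 in OGG1-/-, and 9.63 and 9.83 in DKO, while MUTYH lay between 2.2 and 5.38 CPM in all libraries, so transcript level separated the knockouts from WT in no uniform way. Of 8 haematopoietic marker genes, 5 were below 1 CPM in every library, including PTPRC, SPI1 and MPO. TAL1, another of them, ranged from 1.97 to 55.66 CPM, KIT ranged from 1.98 to 18.7 CPM and CD34 reached 1.03 CPM. Of 7 adherent, epithelial and mesenchymal marker genes, 1 (CDH1) was below 1 CPM in every library.

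A snoRNA host is transcribed and spliced, and snoRNAs are then released from its introns to guide chemical modification of ribosomal RNA and other RNAs. The spliced remainder has no long reading frame, often begins with a run of pyrimidines like a ribosomal protein mRNA, and is commonly degraded by nonsense-mediated decay when ribosomes engage it. NEAT1 builds paraspeckles, MALAT1 sits in nuclear speckles, and NORAD is a cytoplasmic RNA that binds PUMILIO proteins.

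Examples of what the hosts carry are a pair of box C/D snoRNAs, shown because their hosts SNHG29 and ZFAS1 are among those with the clearest differences between libraries. The capitals mark the first TGATGA (box C) and the last CTGA (box D), 5′ to 3′, from the GENCODE v44 transcripts on GRCh38. SNORD49A lies in SNHG29 at chr17:16440036-16440106 on the plus strand, and SNORD12C lies in ZFAS1 at chr20:49278940-49279028 on the plus strand.
SNORD49A: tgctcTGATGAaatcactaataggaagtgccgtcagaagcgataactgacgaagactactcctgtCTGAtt
SNORD12C: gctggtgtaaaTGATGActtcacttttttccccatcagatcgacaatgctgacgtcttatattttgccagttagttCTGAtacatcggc

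The starts of the hosts were read from RefSeq promoter windows (GRCh38.p14), which were given for 36 of the 43 lncRNAs and 23 of the 27 tested snoRNA hosts. A pyrimidine run, defined as a C within 5 bases of the annotated start followed by at least 4 pyrimidines, was found in 11 of these 23 hosts, against 19.65% of all 35116 promoters. If the base before that C was also required not to be a pyrimidine, a rule added after the data were seen, 5 of the 23 hosts and 12.74% of all promoters held one. The windows below run from 10 bases before the annotated start to 30 bases from it, with the run in capitals, for hosts described later. SNHG29 and SNHG16 have similar letters just outside the searched bases and were not counted.
SNHG5, chr6:85678704-85678743, minus strand: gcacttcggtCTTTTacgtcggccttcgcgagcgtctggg
ZFAS1, chr20:49278632-49278671, plus strand: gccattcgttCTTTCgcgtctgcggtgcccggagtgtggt
SNHG19, chr16:2155329-2155368, minus strand: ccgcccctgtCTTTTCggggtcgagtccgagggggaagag
SNHG8, chr4:118278752-118278791, plus strand: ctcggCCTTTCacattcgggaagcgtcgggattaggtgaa
SNHG17, chr20:38435299-38435338, minus strand: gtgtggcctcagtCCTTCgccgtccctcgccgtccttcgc
SNHG29, chr17:16438977-16439016, plus strand: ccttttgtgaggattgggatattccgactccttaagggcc
SNHG16, chr17:76557754-76557793, plus strand: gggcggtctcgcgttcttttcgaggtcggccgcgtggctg
SNHG20, chr17:77088633-77088672, plus strand: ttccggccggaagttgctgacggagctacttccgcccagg

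MIR4435-2HG and CYTOR, both among the lncRNAs that passed the rule below, are near copies of each other on chromosome 2, and their promoters are shown because they share most of their letters. Their windows of 300 bases shared an identical run of 241 bases. It began at the edge of the CYTOR window and ended at the edge of the MIR4435-2HG window, so it may be longer. The capitals mark TGANTCA, an AP-1 motif searched on both strands, which 7.71% of all promoters and 2 of the 36 lncRNAs with a promoter, these 2, held. CYTOR held it at 2 places just before its annotated start, and MIR4435-2HG held 1 of them after its own start. The MIR4435-2HG window ends before the place of the other, which was thus not searched.
CYTOR, chr2:87455177-87455476, plus strand: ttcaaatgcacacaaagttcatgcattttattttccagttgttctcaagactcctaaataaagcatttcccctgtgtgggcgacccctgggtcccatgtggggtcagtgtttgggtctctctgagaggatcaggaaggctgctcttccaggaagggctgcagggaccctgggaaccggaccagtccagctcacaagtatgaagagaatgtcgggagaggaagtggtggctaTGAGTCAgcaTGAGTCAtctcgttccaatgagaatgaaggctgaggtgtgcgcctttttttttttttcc
MIR4435-2HG, chr2:111495112-111495411, minus strand: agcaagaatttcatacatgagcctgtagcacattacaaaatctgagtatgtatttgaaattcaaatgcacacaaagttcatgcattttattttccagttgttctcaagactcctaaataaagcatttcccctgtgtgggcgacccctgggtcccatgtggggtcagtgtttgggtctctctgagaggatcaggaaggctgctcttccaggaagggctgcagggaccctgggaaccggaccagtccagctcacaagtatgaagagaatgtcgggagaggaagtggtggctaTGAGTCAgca

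The other motifs searched on both strands were CACGTG (E-box), found in 5 of the 36 lncRNA promoters and 7.26% of all promoters, TGACNNNGC (antioxidant response element core), found in 5 of 36 and 13.35%, and TGATGNAA, found in 0 of 36 and 3.62%. The microRNA of the MIR4435-2HG locus, miR-4435, is annotated by RefSeq at chr2:111321061-111321082 on the minus strand and again at chr2:87629764-87629785 on the plus strand, within the span of CYTOR, with the same mature sequence. Its seed, bases 2 to 8, is in capitals.
miR-4435: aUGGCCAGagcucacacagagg

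Of all distinct stretches of 50 bases in the annotated CYTOR transcripts, 54.0% also occurred in MIR4435-2HG transcripts, and 27.6% of those of MIR4435-2HG occurred in CYTOR. How the counting treated reads with several alignments is not given in the sources used here, so the counts of these 2 genes are uncertain as to which copy they came from.

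Per kilobase of exon, the most abundant of the lncRNAs in the untreated libraries were snoRNA hosts. SNHG1, host of a cluster of box C/D snoRNAs, had 82.4 CPM per kb, GAS5, which binds the glucocorticoid receptor, had 51.8, and SNHG3 had 43.0. These values used the union of annotated exons, and with the longest transcript they were 86.9, 81.3 and 67.2, with SNHG29 then first at 96.0. Their lowest, median and highest untreated libraries were at 299, 326.4 and 362.9 CPM for SNHG1, 218, 235.8 and 326.5 for GAS5, and 136.5, 170.6 and 217.2 for SNHG3. Exons of SNHG3 overlap RCC1 on the same strand and those of SNHG4 overlap MATR3, so some of their counts may belong to those genes. In all, exons of 30 of the 43 lncRNAs overlapped another annotated gene, 13 on the same strand and 26 on the opposite one, and the strand setting of the counting is not given in the sources used here.

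Among the other roles, NORAD had 37.9 CPM per kb, TUG1, first described in the developing retina, had 23.3, and OIP5-AS1, which binds miR-7 and the RNA-binding protein HuR, had 8.72. MALAT1 had 14.2 and NEAT1 8.13 CPM per kb. The microRNA hosts were low, with MIR22HG at 1.60, MIR17HG, host of the miR-17 cluster, at 0.714 and MIR4435-2HG at 0.193 CPM per kb. With the longest transcript in place of the exon union, OIP5-AS1 was at 22 CPM per kb, MIR17HG at 1.40 and MIR4435-2HG at 0.992, while NORAD, MALAT1, NEAT1 and MIR22HG moved by less than 0.2 and TUG1 was at 31.6. The lowest, median and highest untreated libraries were at 164.6, 200.3 and 261.5 CPM for NORAD, 192.7, 242.1 and 265.6 for TUG1, 155.7, 194.7 and 221.6 for OIP5-AS1, 127.6, 150 and 174.7 for MALAT1, and 7.477, 9.314 and 10.48 for MIR17HG.

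Across the 8 untreated libraries, 15 of the 38 tested lncRNAs had a highest to lowest ratio of CPM of at most 1.5, and 8 had one over 2. NEAT1 was among the steadiest at 1.19, ranging from 171.5 to 204.1 CPM with a median of 184.1. LINC00649 had the widest range of those with a mean of at least 1 CPM, at 21.1, followed by CYTOR at 4.40, MIR4435-2HG at 2.93, SNHG19 at 2.35, SNHG29 at 2.19, SNHG21 and MIR22HG at 2.02 each, and EPB41L4A-AS1 at 1.79. The untested hosts stayed low, with the highest library at 0.5422 CPM for SNHG22, 0.4879 for SNHG31, 0.4029 for SNHG14 and 0.04518 for SNHG28, and SNHG27 had no counts in any library.

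**Figure D1:**
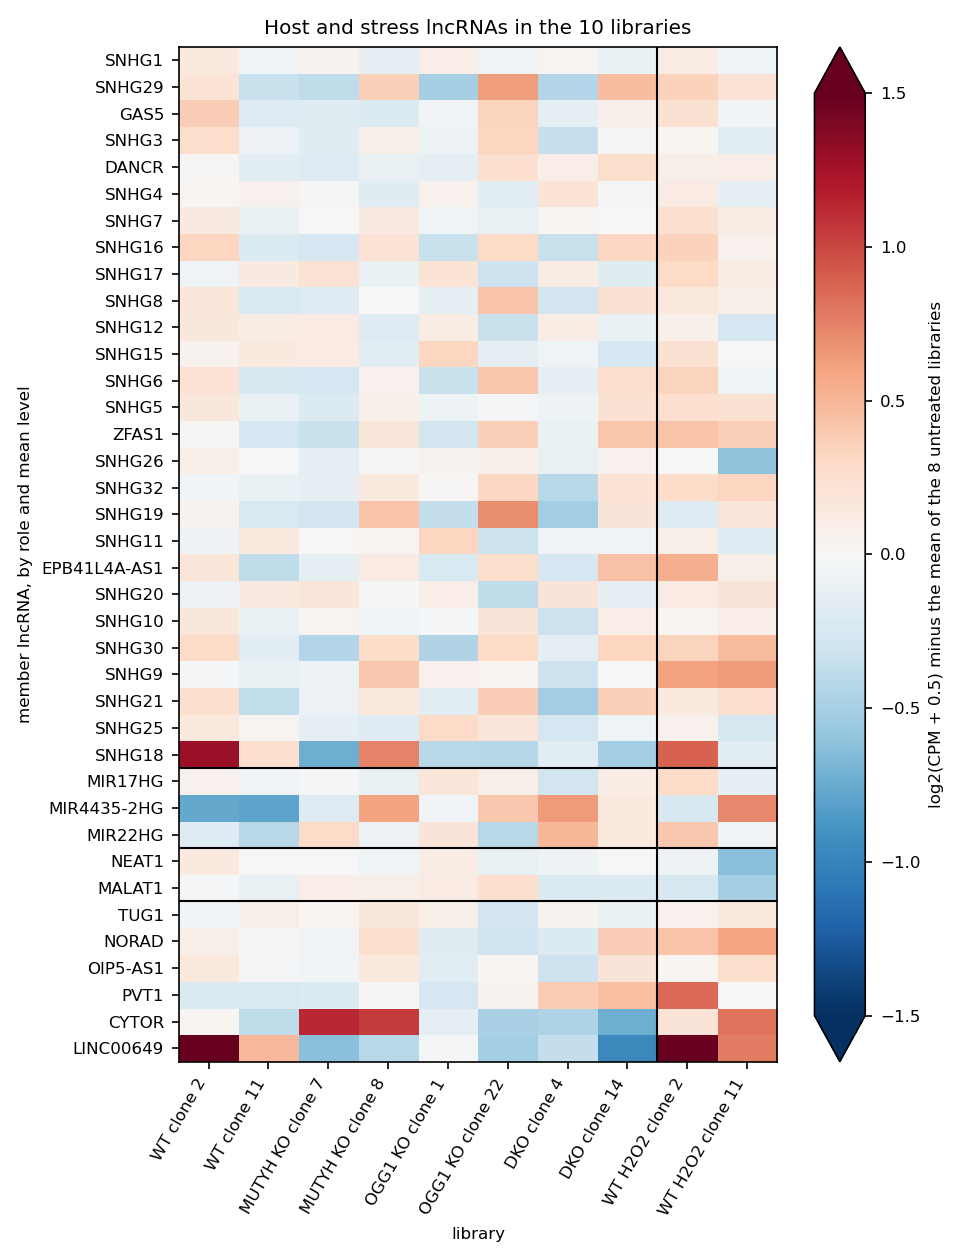
Heat map of the 38 tested lncRNAs (rows, by role and mean level) in the 10 libraries (columns). The colour is log2(CPM + 0.5) minus its mean over the 8 untreated libraries. MIR4435-2HG is lowest in the untreated WT libraries, CYTOR is high in both MUTYH-/- clones, and LINC00649 is high in WT clone 2 with and without H2O2.

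Loss of MUTYH was compared with WT to ask which lncRNAs change without this glycosylase, which removes adenine opposite 8-oxoguanine. CYTOR and MIR4435-2HG were higher and LINC00649 was lower, and the other 35 tested lncRNAs did not pass the rule. The rule was the study's and asked for a log2 fold change beyond 1 together with an edgeR P, not adjusted, no higher than 0.05, which 1.19% of all 17881 tested genes passed. As the lncRNAs were chosen with earlier results of these data known, such shares, here and below, are no independent comparison. With edgeR and with DESeq2 0 of the 38 lncRNAs passed at an adjusted p of 0.05 in any knockout, and 3 were at or under 0.05 without adjustment in MUTYH-/-. In bulk RNA, a change in every cell and a change in a share of the cells cannot be told apart.

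CYTOR held 168 and 165 counts in MUTYH-/- clones 7 and 8 but 75 and 54 in the WT clones (2 and 11), or 7.76 and 7.31 against 3.33 and 2.39 CPM. Its difference was 1.39 ± 0.31 on the log2 scale (SE, edgeR adjusted p = 1). The OGG1-/- clones held 64 and 49 counts and the DKO clones 50 and 40, so the MUTYH-/- libraries lay above all other untreated libraries, those of DKO included. In DKO, 50 and 40 counts were under the lower WT library, with a log2 difference of -0.51 ± 0.32 that did not pass the rule (SE, edgeR adjusted p = 1). The call was kept whichever library was left out.

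MIR4435-2HG counts were 77 and 76 in WT. They were 116 (clone 7) and 217 (clone 8) without MUTYH, 132 (clone 1) and 188 (clone 22) without OGG1, and 220 (clone 4) and 156 (clone 14) in DKO. All 6 knockout libraries lay above both WT libraries. The log2 difference from the shared WT libraries was 1.14 ± 0.36 in MUTYH-/-, 1.08 ± 0.36 in OGG1-/- and 1.31 ± 0.36 in DKO (SE, edgeR adjusted p = 1, 0.999 and 1). Without MUTYH-/- clone 8 its MUTYH-/- difference was 0.66 and no longer passed the rule, and it also failed without WT clone 2 (1.14) or WT clone 11 (1.13). The OGG1-/- call was lost without WT clone 2 (1.08), WT clone 11 (1.07) or OGG1-/- clone 22 (0.82), and the DKO call without DKO clone 4 (1.01). The 30 tested genes within 2 Mb of it had median differences of -0.06, -0.01 and 0.05 in the 3 knockouts. Exons of MIR4435-2HG overlap BCL2L11 on the opposite strand, whose reads may be counted with it.

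LINC00649, a lncRNA gene on chromosome 21 whose exons overlap those of ATP5PO, a subunit of ATP synthase, on the opposite strand, stood at 210 counts in WT clone 2 but 47 in clone 11. It had 15 and 20 in MUTYH-/-, 29 and 18 in OGG1-/-, and 21 and 10 in DKO, so every knockout library was below both WT libraries. The log2 difference was -2.84 ± 0.75 in MUTYH-/-, -2.42 ± 0.73 in OGG1-/- and -3.03 ± 0.76 in DKO (SE, edgeR adjusted p = 1, 0.999 and 1). WT clone 2 was far above the rest, and without it the differences were -1.40 in MUTYH-/- and -0.98 in OGG1-/-, neither of which passed the rule, and -1.59 in DKO, which did. The OGG1-/- call was also lost without OGG1-/- clone 22 (-2.11). The 31 tested genes within 2 Mb had medians of 0.06, 0.01 and 0 in the 3 knockouts. As the strand setting is not known, reads of ATP5PO may be counted with LINC00649.

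**Figure D2:**
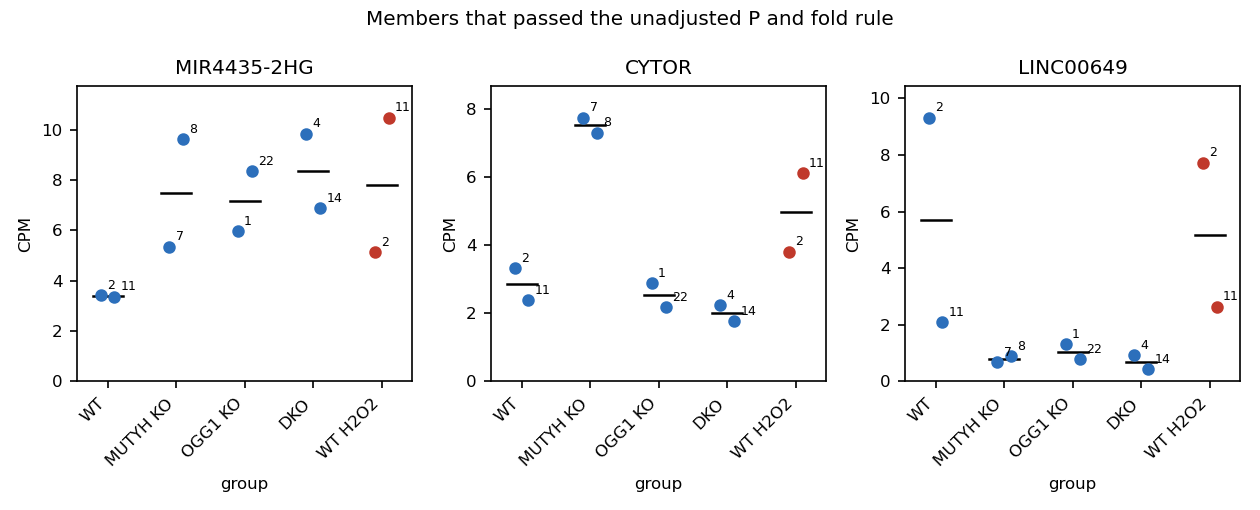
CPM of MIR4435-2HG, CYTOR and LINC00649 in each library (points, with the clone number) by group, with black lines at group means and treated libraries in red. The 2 untreated WT points of MIR4435-2HG, at 3.42 and 3.37 CPM, lie below every other library, and LINC00649 in WT clone 2 stands at 9.31 CPM.

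In OGG1-/- cells, which lack the enzyme that excises 8-oxoguanine, MIR4435-2HG and LINC00649 were the 2 lncRNAs that passed the rule, against 1.67% of all genes. SNHG18, host of SNORD123, was at 39 and 13 counts in WT (clones 2 and 11) and at 4 in each OGG1-/- clone. It was at 7 and 3 in DKO, and at 1 in MUTYH-/- clone 7 and 23 in clone 8. Its difference in OGG1-/- was -2.65 ± 1.14 on the log2 scale, just outside the threshold (SE, edgeR adjusted p = 0.999). SNHG18 did pass the rule in OGG1-/- with DESeq2, with edgeR without its legacy option, without the low-count filter, with only the 4 libraries compared, with the sides described below as a block, and without WT clone 11, with differences of -3.23 to -2.54. Its DKO difference was -2.34 ± 1.11 (SE, edgeR adjusted p = 1), and it passed there without the filter, with 4 libraries or without WT clone 11. WT clone 2 held most of the WT counts, and without it the differences were smaller, at -1.66 in OGG1-/- and -1.35 in DKO. In these 2 knockouts no other setting gave SNHG18 a call. The MUTYH-/- libraries of SNHG18 overlapped those of WT.

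In DKO the same 2 lncRNAs passed, against 1.77% of all genes. PVT1, the lncRNA beside MYC, reached 320 (clone 4) and 343 (clone 14) counts in DKO against 211 and 209 in WT, and 201 to 255 in the single knockouts. Both DKO libraries thus lay above all other untreated libraries, by 0.66 ± 0.20 on the log2 scale from WT (SE, edgeR adjusted p = 1), which is short of the fold threshold. MIR22HG, host of miR-22, had 158 and 123 counts in DKO against 94 and 79 in WT, a log2 difference of 0.71 ± 0.34 (edgeR adjusted p = 1). It had 131 and 102 counts in MUTYH-/- and 125 and 79 in OGG1-/-, and the OGG1-/- libraries overlapped WT.

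For most of the lncRNAs the fitted differences between genotypes were small. The log2 fold change lay within 0.5 in either direction for 34 of 38 in MUTYH-/-, 35 in OGG1-/- and 32 in DKO, and the median over the 38 was -0.04, 0.03 and -0.05, against 0.01, 0.01 and 0 over all genes. The share of all genes within 0.5 is not given here, so these counts do not set the lncRNAs apart from other genes. The libraries of a knockout and WT did not overlap for 10, 9 and 10 of the 38, against 21.5%, 25.2% and 25.7% of all genes, so these shares (26.3%, 23.7% and 26.3%) were near those of all genes. NEAT1 had 204.1 and 184.8 CPM in WT and 171.5 to 199.1 in the knockouts, and its log2 difference was -0.11 ± 0.15, -0.07 ± 0.15 and -0.11 ± 0.15 in MUTYH-/-, OGG1-/- and DKO.

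Among the snoRNA hosts, the 2 clones of a genotype differed in a way that recurred in the 4 genotypes. Over genes other than the 43, the first principal component of the within-genotype deviations held 49.9% of their variance and put WT 2, MUTYH-/- 8, OGG1-/- 22 and DKO 14 on one side (side A) and WT 11, MUTYH-/- 7, OGG1-/- 1 and DKO 4 on the other (side B). With 2 clones per genotype the deviations are equal and opposite, so any component puts 1 clone of each genotype on each side. They vary in only 4 directions, 1 per genotype, so the first holds a sizeable share of the variance by design. These sides come from the data and not from the labels, so the values that follow are a description with no test. Of the 27 tested hosts, 14 were higher on side A in all 4 genotypes, 4 were lower in all 4, and the median difference was 0.23 on the log2 scale, against 0.01 over all genes. How many of all genes went 1 way in all 4 genotypes is not given here. That share is at least 29.2% (15.4% higher and 13.8% lower on side A), the share of all genes whose sides did not overlap.

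SNHG29, host of SNORD49A, SNORD49B and SNORD65, had the widest such difference of the hosts above 1 CPM. It had 350.1 CPM in WT 2 against 241.7 in WT 11, 391.3 in MUTYH-/- 8 against 234.2 in clone 7, 468.7 in OGG1-/- 22 against 214.5 in clone 1, and 417.8 in DKO 14 against 224.9 in DKO 4. The sides did not overlap, and the means were 407 ± 49.7 and 229 ± 11.8 CPM (SD, n = 4 each).

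SNHG16, host of SNORD1A to SNORD1C, had 88.57, 82.36, 87.11 and 88.18 CPM on side A (WT 2, MUTYH-/- 8, OGG1-/- 22 and DKO 14) and 61.19, 58.82, 56.16 and 56.28 on side B. ZFAS1, host of SNORD12, SNORD12B and SNORD12C, had 33.35, 37.33, 42.14 and 44.13 CPM against 27.47, 26.09, 27.06 and 30.62 in the same order. Both hosts were higher on side A in every genotype, and their sides did not overlap. In SNHG17, host of SNORA71 snoRNAs, the order was turned, with 49.85, 48.90, 42.05 and 46.25 CPM on side A and 57.29, 60.67, 60.32 and 56.59 on side B.

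The same pattern was seen in other hosts. In the order WT 2, MUTYH-/- 8, OGG1-/- 22 and DKO 14 against WT 11, MUTYH-/- 7, OGG1-/- 1 and DKO 4, SNHG19 had 18.36, 23.98, 29.04 and 20.33 CPM against 15.11, 14.59, 13.78 and 12.36. SNHG8 had 54.16, 48.05, 64.51 and 56.26 CPM against 40.63, 41.60, 43.33 and 39.09. SNHG6 had 44.97, 40.56, 52.04 and 46.78 CPM against 32.65, 32.32, 30.68 and 35.55. In these 3 hosts every library of side A was above every library of side B. EPB41L4A-AS1 had 19.60, 18.84, 20.78 and 23.54 CPM against 13.16, 15.74, 14.64 and 14.42, and SNHG21 had 4.701, 4.389, 5.150 and 5.115 against 2.880, 3.601, 3.389 and 2.552, again without overlap.

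The sides did not overlap for 13 of the 27 hosts, 11 higher and 2 lower (SNHG17 and SNHG20) on side A, and for 1 of the 11 other lncRNAs, OIP5-AS1, against 29.2% of all genes (15.4% higher and 13.8% lower on side A). The 11 higher hosts were SNHG29, SNHG19, SNHG21, SNHG30, SNHG16, EPB41L4A-AS1, ZFAS1, SNHG6, SNHG8, SNHG3 and SNHG5, with differences from 0.82 down to 0.23 on the log2 scale. SNHG1, the most abundant host, did not follow them (-0.07), and NEAT1 (-0.01) and MALAT1 (0.05) differed little between the sides. Mitochondrial transcripts took 3.753% to 5.017% of counts on side A and 5.141% to 7.455% on side B, and their part in these differences was not tested.

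Hosts with and without a pyrimidine run at the start were found among those higher on side A. The 11 hosts with the run had a median difference of 0.23, with 8 higher on side A, and the 12 without it had a median of 0.32, with 9 higher. SNHG17 has the run and was lower on side A, while SNHG29 was counted without it. Under the stricter rule the medians were 0.21 for 5 hosts with the run and 0.30 for 18 without it.

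Over the 10 libraries, the lncRNAs whose log2 CPM was most like the median of the other tested hosts were SNHG8 (Pearson r = 0.93), SNHG16 (0.92), SNHG29 (0.90), SNHG6 (0.87) and EPB41L4A-AS1 (0.86). These correlations describe 10 libraries that share clones and sides and carry no test. At the other end SNHG20 had r = -0.69 and SNHG17 r = -0.54.

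**Figure D3:**
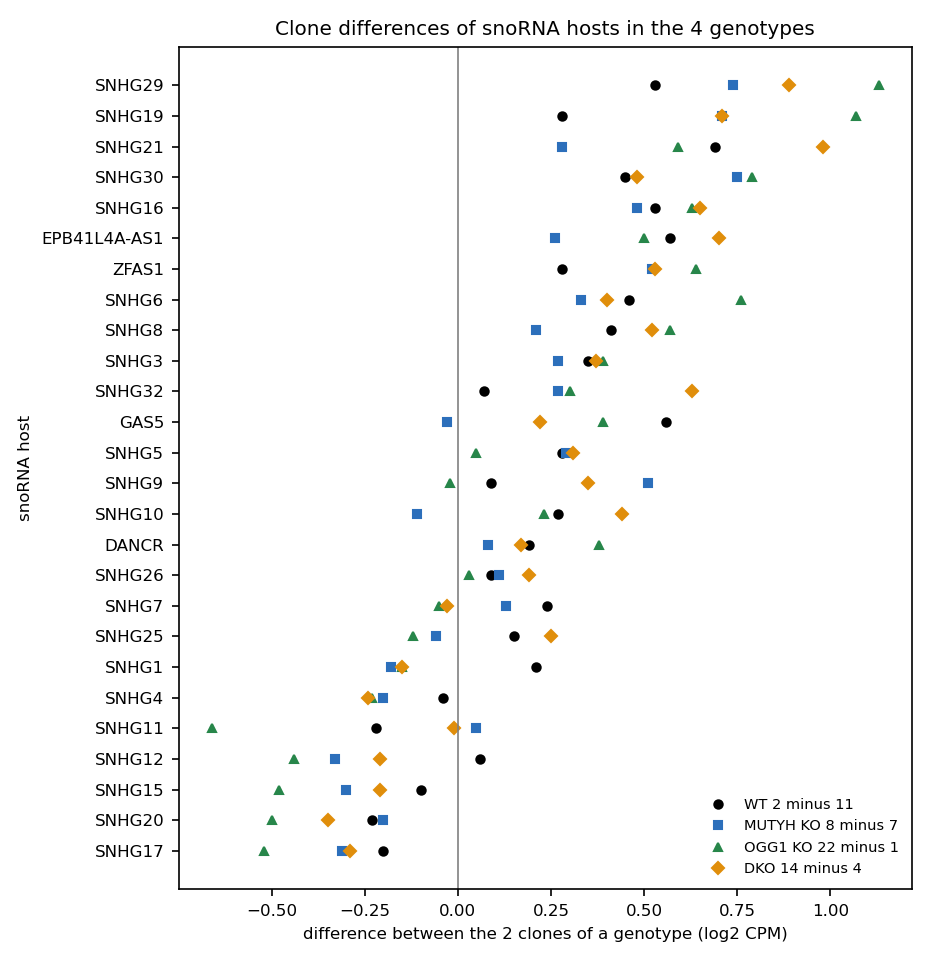
Difference in log2 CPM between the side A and the side B clone of each genotype (x axis) for 26 tested snoRNA hosts (rows, ordered by the mean of the 4 differences), with 1 point per genotype. SNHG18, the tested host with the lowest mean over the untreated libraries (0.5219 CPM), is left out. SNHG29 lies at 0.53 to 1.13 and SNHG17 at -0.52 to -0.20.

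H2O2 was applied to WT cells to ask how an oxidant changes transcription a day later. MIR4435-2HG was the only one of the 38 tested lncRNAs to pass the rule, against 1.75% of all 16997 tested genes. It went from 77 to 113 counts in clone 2 and from 76 to 238 in clone 11, that is by 1.5 and 3.11 times in CPM, and its log2 difference was 1.19 ± 0.39 (SE, edgeR adjusted p = 0.638). Without WT clone 11 this was 1.19 and without treated clone 11 it was 0.59, and neither passed the rule.

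Treated and untreated libraries came from the same clones, and with the clone as a block 473 genes (2.78%) passed the rule and 437 (2.57%) stayed at or under 0.05 after adjustment. MIR4435-2HG was again the 1 lncRNA in both counts, with a log2 difference of 1.13 ± 0.27 and an edgeR adjusted p of 0.0490. Without adjustment, 13 of the 38 lncRNAs were at or under a P of 0.05 in that fit, 10 higher and 3 lower, against 20.1% of all genes (9.61% higher and 10.5% lower). This fit had 1 residual degree of freedom.

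Among the snoRNA hosts, SNHG9, host of SNORA78, went from 112 to 175 counts in clone 2 and from 105 to 185 in clone 11. ZFAS1 went from 752 to 978 and from 620 to 962. Treated and untreated libraries of both hosts did not overlap. With the clone as a block the log2 differences were 0.74 ± 0.22 for SNHG9 and 0.51 ± 0.13 for ZFAS1, with edgeR adjusted p of 0.0914 and 0.0627.

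Of the 27 tested hosts, 12 were higher in both clones after H2O2, 6 were lower in both and 9 moved in opposite directions, with a median change of 0.07 in clone 2 and 0.19 in clone 11. How many of all genes moved the same way in both clones is not given here. That share is at least the 41.4% of all genes without overlap. Over all 38 lncRNAs the treated and untreated libraries did not overlap for 15 (39.5%), 12 higher and 3 lower, against 41.4% of all genes. The median host difference of clone 2 over clone 11 was 0.27 untreated and 0.18 treated.

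NORAD, which has been named for induction by DNA damage, had 215.4 and 205.6 CPM in untreated clones 2 and 11 and 271.8 and 306.6 after H2O2. NEAT1 had 204.1 and 184.8 CPM before and 175.9 and 119.9 after, and MALAT1 had 144.1 and 135.8 before and 124.5 and 104.1 after. NORAD was thus higher and the nuclear lncRNAs lower in both clones, without overlap. With the clone as a block the log2 differences were 0.45 ± 0.13, -0.43 ± 0.13 and -0.30 ± 0.12, and none passed adjustment (edgeR adjusted p = 0.0803, 0.115 and 0.194).

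CYTOR and PVT1 differed mainly in 1 clone each. CYTOR went from 75 to 84 counts in clone 2 and from 54 to 139 in clone 11, and PVT1 went from 211 to 443 in clone 2 and from 209 to 248 in clone 11. With the clone as a block the log2 differences were 0.77 ± 0.30 and 0.67 ± 0.22, with edgeR adjusted p of 0.180 and 0.119. LINC00649 kept its clone difference, with 170 counts in treated clone 2 and 60 in treated clone 11, and its log2 difference with the block was -0.03 ± 0.25.

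MIR22HG went from 94 to 145 counts in clone 2 and from 79 to 106 in clone 11, without overlap. Its log2 difference was 0.55 ± 0.30 without the block (SE, edgeR adjusted p = 0.669) and 0.53 ± 0.24 with it (0.234).

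**Figure D4:**
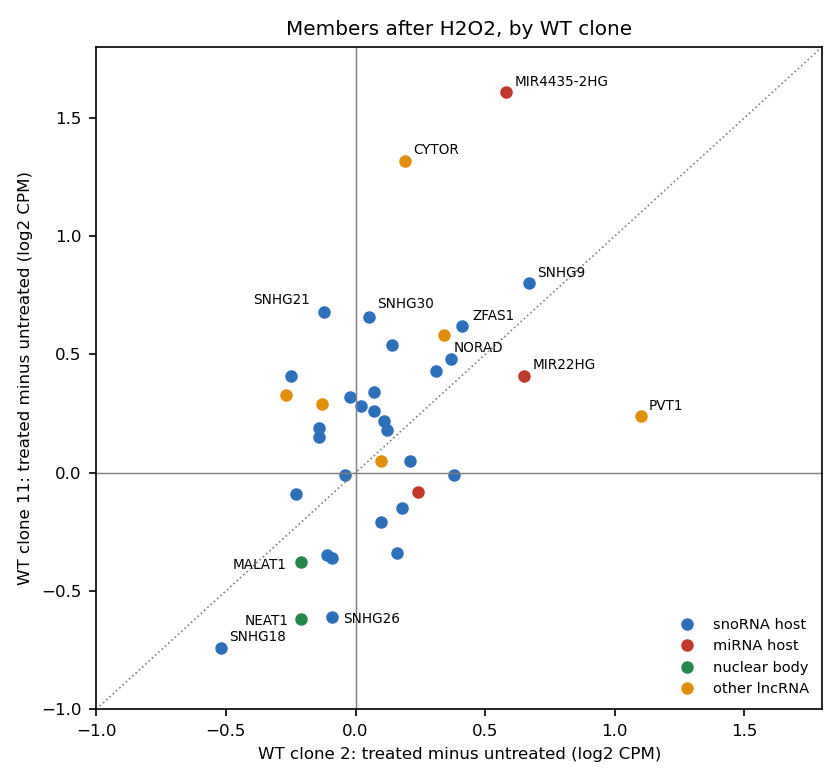
Change in log2 CPM after H2O2 in WT clone 2 (x axis) and WT clone 11 (y axis) for the 38 tested lncRNAs, coloured by role, with a dotted line of equal change. SNHG9 and ZFAS1 lie near the line, while MIR4435-2HG (0.58 and 1.61) and CYTOR (0.19 and 1.32) lie above it and PVT1 (1.10 and 0.24) below it.

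Genes that work with the hosts were described from lists. None of the 8 snoRNP core proteins, 9 tested snoRNP assembly factors, 14 nonsense-mediated decay factors, 10 paraspeckle proteins, 17 protein-coding snoRNA hosts or 3 NORAD partners passed the rule in any knockout or after H2O2, nor did MYC. With the clone as a block, 6 of 14 decay factors, 2 of 8 core proteins, 3 of 9 assembly factors and 2 of 17 coding hosts were higher after H2O2 at a P of 0.05 without adjustment, with list medians of 0.19, 0.21, 0.25 and 0.15 on the log2 scale, against 0 over all genes. Over all genes 9.61% were higher by this measure, so the share of the 17 coding hosts was close to that of all genes. MYC, the neighbour of PVT1, was the 1 list gene below 0.05 in the other direction, at -0.40 ± 0.12 (SE, edgeR adjusted p = 0.110). None of the list genes passed adjustment.

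The sides were set by all genes other than the 43, the list genes included, so the values of the lists between the sides describe genes that took part in the split. Of the snoRNP core proteins 7 of 8 were higher on side A with a median difference of 0.35 on the log2 scale, of the assembly factors 9 of 9 with a median of 0.18, and of the protein-coding snoRNA hosts 14 of 17 with a median of 0.38. The sides did not overlap for 5, 5 and 12 of these in that direction, against 15.4% of all genes, and for 1 core protein (NOP56, -0.37) and 2 coding hosts (EIF4A1, -0.75, and HSPA8, -0.31) in the other, against 13.8%. Of the decay factors 6 of 14 were higher on side A, with a median of -0.10. Their sides did not overlap for 1 in that direction and for 4 in the other. Of the paraspeckle proteins 6 of 10 were higher on side A (median 0.04), 3 of them without overlap. Of the NORAD partners 3 of 3 were higher (median 0.2), 1 of them without overlap.

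The snoRNAs themselves had few counts. GENCODE places 133 snoRNAs with a row in the tables inside the hosts, of which 84 lie in SNHG14, which had too few counts to be tested, and all 84 were at 0 in every library. Of the 49 in other hosts, 34 were at 0 in every library, and all rows together held 215 to 332 counts per library. The snoRNAs of GAS5 are not in this tally. Only 5 had a mean of at least 10 counts, led by SNORA73B in SNHG3 with 77 to 105 counts and SNORD104 in SNHG25 with 63 to 99. The levels of the snoRNAs were thus not compared.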

How the data were processed

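RNA-seq of 10 HAP1 libraries was used. The authors aligned reads to GRCh38.p13 with HISAT2 2.2.1 and deposited whole-number counts per gene (Rsubread, Ensembl annotation). The strand setting is not given in the sources used here. The untreated WT columns of both tables were identical and used once, and 0 columns of per-sample values matched no sample.

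The tests on counts used edgeR 4.0.16 under R 4.3.3, with DESeq2 1.42.0 as an alternative (edgeR: TMM factors, filterByExpr, quasi-likelihood F test with legacy=TRUE, two-sided, Benjamini-Hochberg adjustment over all tested genes). Genotypes shared 1 fit of 8 libraries (4 residual degrees of freedom), and H2O2 was fitted on 4 (2). CPM used TMM factors. The fits were checked on simulated counts drawn without clone or side differences, so that check does not cover how such differences affect the P values. The study's design has no block, and the treated and untreated libraries carry the same WT clone numbers. The clone difference correlated between them (r = 0.681 over 16997 genes).

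The lncRNAs and lists were chosen with earlier results of these data known. Values by library or their range are given for lncRNAs that passed the rule, for those not overlapping with a log2 fold change beyond 0.5 and at least 1 CPM, for the 3 highest per length in each role, for the 8 with the widest untreated range and for the 5 most like the host median; others shown as examples were chosen after their values were seen. Annotation came from GENCODE v44 and RefSeq by symbol. Separate cultures per library are not stated, so P values measure the spread between clones. Alternatives were other normalization, tests, filters, libraries and a block.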

Additional observations from a re-analysis of the deposited data

Results flagged for a closer look

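CYTOR was singled out by a test of whether its difference on loss of MUTYH was the same with and without OGG1. It was the 1 of 38 lncRNAs that passed the rule there, against 358 of all 17881 tested genes. The DKO over OGG1-/- difference less the MUTYH-/- over WT difference was -1.73 ± 0.44 on the log2 scale (SE, 2 clones per genotype), a contrast chosen after the data were seen. In edgeR its P was 0.00542 and its adjusted p was 1, so it did not pass correction over all genes. CYTOR was higher in 2 of 2 MUTYH-/- libraries than in both WT libraries, while the DKO libraries (50 and 40 counts) held fewer counts than OGG1-/- clone 1 (64) and were on either side of OGG1-/- clone 22 (49). Reads may be shared with MIR4435-2HG, and the part of this in the contrast was not tested.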

How the results depend on the processing

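The alternatives were run for the log2 fold changes of CYTOR, MIR4435-2HG, LINC00649, SNHG18, PVT1, MIR22HG, SNHG9, ZFAS1, NEAT1, NORAD and MALAT1 in the comparisons that give a tested value for them. Direction changed for NEAT1 in OGG1-/- without OGG1-/- clone 22 (0.04, range -0.19 to 0.04 over single libraries left out) and for LINC00649 after H2O2 without WT clone 2 (1.30) or treated clone 11 (0.44, range -1.13 to 1.30), none of which passed the rule. The number of lncRNAs that passed the rule kept within 1.5 times the main count, except where a single library was left out. Leaving out each library in turn gave 1 to 3 lncRNAs in MUTYH-/- (CYTOR alone without WT clone 2, CYTOR and LINC00649 without WT clone 11, and SNHG18 in place of MIR4435-2HG without MUTYH-/- clone 8), 0 to 2 in OGG1-/- (0 without WT clone 2, SNHG18 in place of MIR4435-2HG without WT clone 11, and SNHG31 alone, which is not tested with all libraries, without OGG1-/- clone 22), 1 to 3 in DKO (LINC00649 alone without DKO clone 4, SNHG18 added without WT clone 11) and 0 to 1 after H2O2 (0 without WT clone 11, PVT1 (1.11) in place of MIR4435-2HG without treated clone 11). SNHG18 was also added by 5 other settings in OGG1-/- and 2 in DKO. The lone library of a group was then assumed to vary like the others. With the clone as a replicate block, 1 lncRNA passed after H2O2, as without it, but at 0.05 there were 13 against 4 without adjustment and 1 against 0 after it. The calls over all genes ranged from 86 to 702 in MUTYH-/-, 123 to 806 in OGG1-/-, 134 to 705 in DKO and 154 to 510 after H2O2, against main counts of 212, 299, 317 and 298. MIR4435-2HG, CYTOR, LINC00649 and SNHG18 rest on few counts, which limits their precision, and 2 clones per genotype cannot tell a clone from its genotype.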
